A study of Mus musculus with 6 samples.

Results

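A small set of mouse iNKT cells carried mRNA of at least 2 of 6 immediate early transcription factor genes, the nuclear receptors Nr4a1, Nr4a2 and Nr4a3 and the zinc finger factors Egr1, Egr2 and Egr3. iNKT cells are T cells with an invariant αβ receptor that binds lipid antigens on CD1d. Single-cell RNA counts came from 6 libraries of wild-type C57BL/6 mice aged 5 weeks, with 2 libraries each for liver, spleen and lymph node. No mouse had been given a treatment per the labels, so the groups differ in organ. Cells had been depleted of CD8+ and B220+ cells and sorted as CD1d tetramer+ TCRβ+ cells. A cell entered the set when it had a unique molecular identifier (UMI, 1 captured mRNA molecule) of 2 or more of the 6 genes and none of Ccl1, Nrgn, Ccr6 and Top2a. The cells were thus chosen by their own UMIs of these 10 genes. This rule was met by 131 of the 16532 cells that passed the filters on genes and mitochondrial UMIs, or 0.792%. They are called Nr4a/Egr-positive cells here. They were compared with the 14892 cells of the same libraries that had no UMI of any of the 6 genes, called comparison cells.

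The Nr4a genes encode orphan nuclear receptors that T cells induce within hours of antigen receptor signalling, and Nr4a1 (Nur77) is widely used as a reporter of that signal. Egr1, Egr2 and Egr3 encode zinc finger factors induced through the Ras and MAPK branch and calcium. In the iNKT lineage, Egr2 acts during development upstream of Zbtb16, which encodes the lineage factor PLZF. Both families are also induced in many cells by stress and by handling of tissue, together with the AP-1 genes (Fos and Jun families).

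Upstream windows of 4 genes are shown because they belong to rule genes detected in all organs or to genes that rose with them, and because they hold motif words of factors that act on immediate early genes. Each window is the 250 bases before a RefSeq transcript start (GRCm38.p6), written 5′ to 3′ on the gene's strand. Capitals mark TGACG (the core of a cyclic AMP response element), the EGR words GCGTGGGCG and GCGGGGGCG and the CArG box of serum response factor in the windows of Nr4a1 (chr15:101266596-101266845, plus strand), Egr2 (chr10:67537619-67537868, plus strand) and Tagap (chr17:7925750-7925999, plus strand). In Nfkbia (chr12:55492648-55492897, minus strand) they mark the kB motif of NF-kB, searched as 3 common variants of its 10 bases. Words were searched on both strands. The Nr4a1, Egr2 and Tagap windows lie inside longer annotated transcripts, and none of the 4 windows overlaps a GENCODE vM21 exon.
Nr4a1: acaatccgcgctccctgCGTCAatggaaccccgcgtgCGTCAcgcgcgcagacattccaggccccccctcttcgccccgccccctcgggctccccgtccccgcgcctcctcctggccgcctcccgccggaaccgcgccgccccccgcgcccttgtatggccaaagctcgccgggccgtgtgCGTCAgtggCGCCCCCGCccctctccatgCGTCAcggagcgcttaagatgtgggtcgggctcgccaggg
Egr2: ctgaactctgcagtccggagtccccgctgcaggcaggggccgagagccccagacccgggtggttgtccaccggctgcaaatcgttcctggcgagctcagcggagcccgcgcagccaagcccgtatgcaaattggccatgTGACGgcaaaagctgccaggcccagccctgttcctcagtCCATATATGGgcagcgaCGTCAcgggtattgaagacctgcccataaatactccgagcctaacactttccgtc
Tagap: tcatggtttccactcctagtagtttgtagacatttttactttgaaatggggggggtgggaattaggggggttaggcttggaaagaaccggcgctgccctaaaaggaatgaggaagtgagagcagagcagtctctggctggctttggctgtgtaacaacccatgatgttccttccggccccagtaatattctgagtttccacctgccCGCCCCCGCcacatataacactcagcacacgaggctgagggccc
Nfkbia: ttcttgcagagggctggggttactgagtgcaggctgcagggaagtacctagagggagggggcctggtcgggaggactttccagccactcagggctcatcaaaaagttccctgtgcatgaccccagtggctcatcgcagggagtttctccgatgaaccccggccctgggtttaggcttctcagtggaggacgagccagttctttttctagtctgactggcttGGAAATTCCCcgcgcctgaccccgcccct
TGACG occurred 4 times in the Nr4a1 window, which also held 1 EGR word. It occurred 2 times in the Egr2 window, beside 1 CArG box. Of the 4 rule genes with a window used here (Nr4a1, Nr4a2, Nr4a3 and Egr2), all 4 held TGACG in at least 1 window and 6 of their 8 windows held it, and so did 17.8% of 32851 windows of all genes. The Egr2 windows that start at 67537619, 67537620 and 67537680 overlap and hold the same 2 matches, so they are not separate cases. Of the 15 windows of 12 named genes that rose, 2 held TGACG (Nfkbid and Rilpl2) and 2 an EGR word (Dusp2 and Tagap). An EGR word was present in 3.06% of all windows, a CArG box in 1.47% and a kB word in 0.32%. The match of these words describes the sequence and was not tested for binding.

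Nr4a/Egr-positive cells were most frequent in lymph node. They made up 2.05% of cells in lymph node 1 (54 cells, exact Clopper-Pearson 95% interval 1.54 to 2.66%) and 1.19% in lymph node 2 (34 cells, 0.828 to 1.66%). In liver the shares were 0.250% (7 cells, 0.101 to 0.514%) and 0.734% (21 cells, 0.455 to 1.12%). In spleen they were 0.293% (8 cells, 0.127 to 0.577%) and 0.264% (7 cells, 0.106 to 0.542%). Both lymph node libraries lay above all liver and spleen libraries, while liver and spleen overlapped. The organ means were 1.62 ± 0.603% in lymph node, 0.492 ± 0.342% in liver and 0.278 ± 0.0209% in spleen (SD, n = 2), and 67.2% of the set came from lymph node. With at least 3 of the genes asked for, the organ means were 0.140% in liver, 0.131% in lymph node and 0.0188% in spleen, so that lymph node no longer stood above liver. The liver libraries held 1 and 7 such cells, the lymph node libraries 6 and 1 and the spleen libraries 0 and 1. These shares result from the rule and were not tested, and the intervals cover counting error only.

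**Figure D1:**
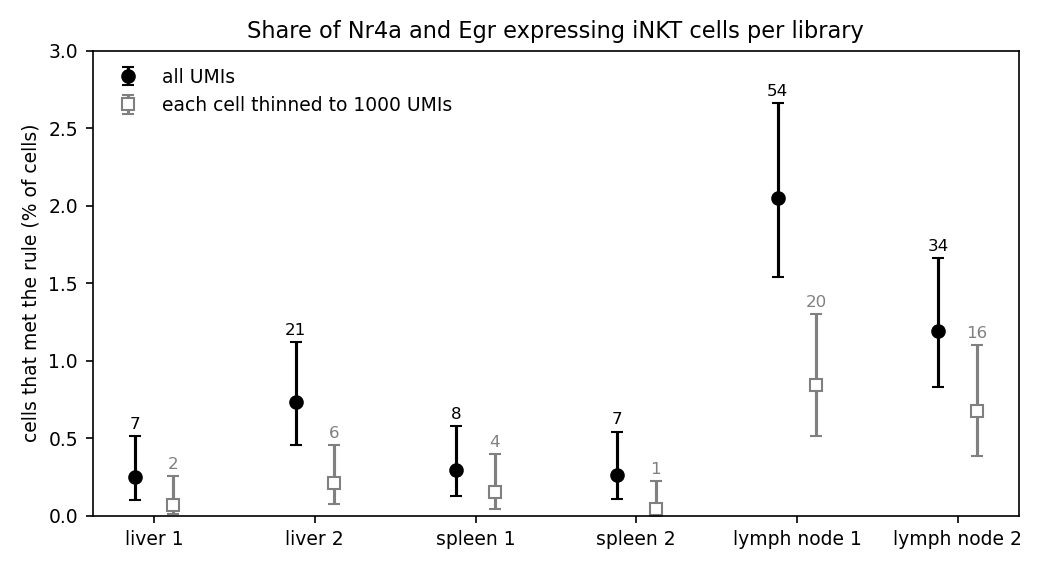
Share of cells (percent) that met the rule in each of the 6 libraries, with exact 95% binomial intervals, for all UMIs (filled) and after every cell was thinned to 1000 UMIs (open), with the number of cells above each point. Lymph node libraries sit at 2.05 and 1.19% with all UMIs and at 0.843 and 0.678% after thinning, above the liver and spleen libraries in both settings.

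Depth did not run in the order of the shares. Liver Nr4a/Egr-positive cells had medians of 3858 and 3294 UMIs, spleen cells 2336 and 1803, and lymph node cells 1835.5 and 1644.5. In each of the 6 libraries they were deeper than the comparison cells, whose medians were 3566 and 2867 for liver, 1716 and 1544 for spleen, and 1701.5 and 1443 for lymph node. After each cell had been thinned to 1000 UMIs and 1075 shallower cells left out, 49 of 15457 cells met the rule. The thinned shares were 0.843 and 0.678% in lymph node, 0.0714 and 0.210% in liver and 0.155 and 0.0402% in spleen. Here too, both lymph node libraries were above all others. The lymph node libraries also differed from the others in sex-linked transcripts, with Y-chromosome genes detected in lymph node and none in liver or spleen cells, so that organ and this difference cannot be told apart in any comparison with lymph node.

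Detection of single genes was sparse. Of the 131 cells, 115 had exactly 2 of the 6 genes and 75 had just 2 UMIs of them in all, while 16 had 3 or more genes and the highest cell had 17 UMIs. Just outside the rule lay 1259 cells with exactly 1 of the genes and none of the 4 exclusion genes, 1159 of them with a single UMI. A further 32 cells had 2 or more of the genes and were left out for an exclusion gene. Cells with exactly 1 gene made up 16.3 and 15.4% of the lymph node libraries against 4.22 to 7.03% of the other 4. The sorted libraries held no cell type known to lack these transcripts, so the part of free RNA in a single UMI was not tested.

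Nr4a1 and Egr1 were the genes most often detected. Nr4a1 had a UMI in 102 of the 131 cells (77.9%), Egr1 in 82, Egr2 in 46, Nr4a3 in 36, Nr4a2 in 15 and Egr3 in 1. Over all 16532 cells, Nr4a1 had a UMI in 688 and Egr1 in 668, but Egr2 in 137, and 33.6% of the Egr2-positive cells fell in the set. For the other 5 genes that share was 9.09 to 17.0%. Both families were present in 86 cells (65.6%), Nr4a genes alone in 28 and Egr genes alone in 17. The most frequent combination was Nr4a1 with Egr1 and no other gene (43 cells, 35 of them from lymph node). It was followed by Egr1 with Egr2 (17 cells), Nr4a1 with Egr2 (16), Nr4a1 with Nr4a3 (16) and Nr4a1 with Nr4a2 (10, all from lymph node).

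The make-up of the set differed between organs in a descriptive sense. Nr4a1 was detected in 84.1% of lymph node, 71.4% of liver and 53.3% of spleen Nr4a/Egr-positive cells, but this order did not hold by library. It was found in 90.7 and 73.5% in lymph node, 42.9 and 81.0% in liver, and 25.0 and 85.7% in spleen, in sets of 7 and 21 liver cells and 8 and 7 spleen cells. Nr4a2 was detected in 17.0% of those in lymph node and in 0 of 28 in liver and 0 of 15 in spleen. Egr2 was found in 27.3% in lymph node against 50.0% in liver and 53.3% in spleen, and Egr1 in 58.0, 71.4 and 73.3%. Nr4a3 was found in 21.6% in lymph node, 42.9% in liver and 33.3% in spleen. By library, Egr1 in spleen 2 (57.1%) lay below both lymph node libraries (57.4 and 58.8%) and Nr4a3 in spleen 1 (25.0%) below lymph node 2 (26.5%). Among all cells, Nr4a1 had a UMI in 10.1% in lymph node, 1.64% in liver and 0.799% in spleen, whereas Egr1 had a UMI in 4.76, 4.38 and 2.95%. Thus the organs lay further apart in Nr4a1 than in Egr1.

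**Figure D2:**
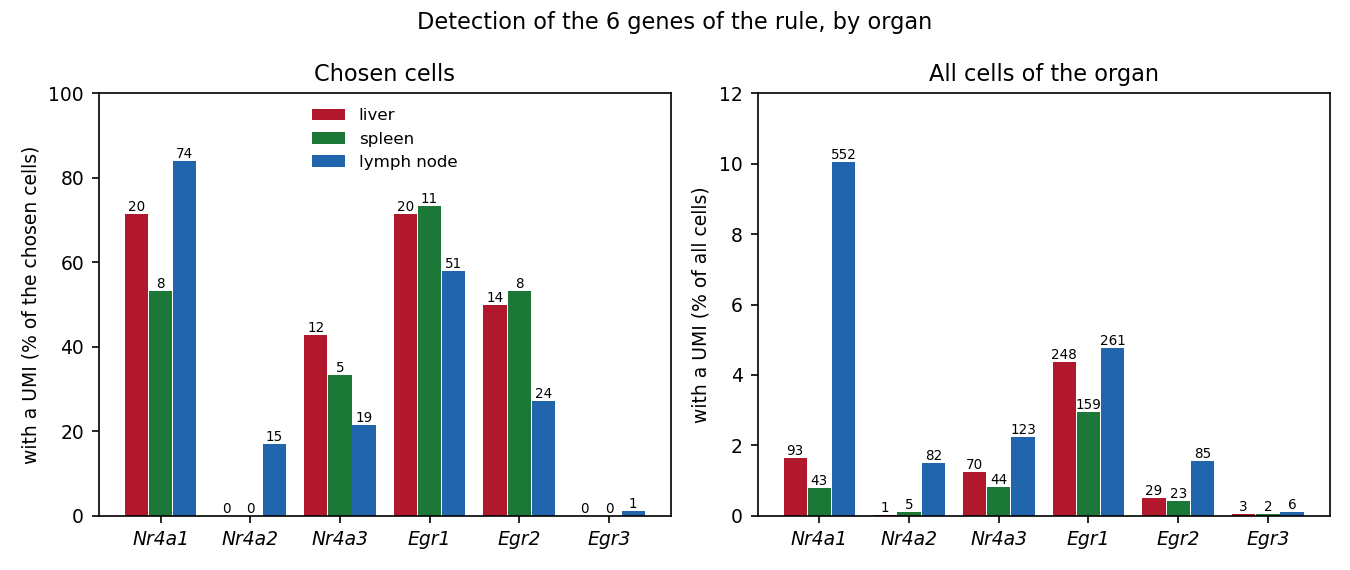
Percent of Nr4a/Egr-positive cells and percent of all cells with a UMI of each of the 6 rule genes, by organ, with the number of such cells above each bar. Nr4a1 reaches 84.1% of the lymph node set, and Nr4a2 and Egr3 are at 0 in the liver and spleen sets.

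Hepatocyte, B cell and CD8 markers were at or near 0 in the set and in comparison cells, while some myeloid genes were present in both kinds of cells. None of the 7 hepatocyte genes had a UMI in any Nr4a/Egr-positive cell. The 5 B cell genes had 2 UMIs in all, with Ms4a1 and Ebf1 at 0, and the CD8 genes had 1 UMI, with Cd8a at 0. CPM is the count as a share of the summed UMIs of all genes but the rule, ribosomal and haemoglobin genes, scaled to 1000000. In comparison cells the hepatocyte genes summed to 1.64 to 5.00 CPM, B cell genes to 2.62 to 18.5 CPM and CD8 genes to 2.40 to 5.76 CPM. A floor of 3 counts over the whole set corresponds to 12.8 CPM, so that a fall below the hepatocyte or CD8 levels was not detectable. B cell genes stood at 57.9 CPM in spleen 1 and 20.2 CPM in lymph node 2 of the set. The 11 myeloid genes had a summed level of 55.0 to 324 CPM against 237 to 382 CPM in comparison cells. In the set Csf1r, Adgre1, Fcgr3, S100a8, S100a9 and C1qa were at 0. The 7 T cell and iNKT genes summed to 4518 to 7316 CPM against 5456 to 6073 CPM. Cd3d stood at 1738 to 2371 CPM in the set and 1739 to 2336 CPM in comparison cells, and Cd3g at 1216 to 3109 CPM and 1761 to 2561 CPM, lower in the set in liver 2 and spleen 1. Of the 131 cells, 4 were among the 334 cells with the top 2% of Scrublet doublet scores. The libraries shared 155 cell barcodes, none of which was in the set in both libraries and 2 of which were in the set in 1 of them.

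UMIs were then summed per library over each kind of cell, and edgeR's quasi-likelihood test with library as a block compared the 6 pairs of sums. The 10 genes of the rule and 111 ribosomal and haemoglobin genes were left out. Of 8044 genes tested, 46 (0.572%) were called at an adjusted p below 0.05, 29 (0.361%) higher and 17 (0.211%) lower in Nr4a/Egr-positive cells. Genes that rose included Tagap, a GTPase activating protein of T cell activation, the NF-kB regulator genes Nfkbid, Nfkbiz and Nfkbia, the early activation marker Cd69 and the cytokine gene Il4. Genes that fell included Id2, which encodes an inhibitor of E proteins, and the cell division genes Ccnb2 and Stmn1. Against comparison cells without the exclusion genes, which include Top2a, Stmn1 was not called (−0.34, edgeR adjusted p = 0.80) and Ccnb2 had too few UMIs to be tested. With TMM factors the median log2 fold change of all genes was −0.29, so fold changes read against that shift. With RLE factors the median was −0.06 and 50 genes were called, 39 higher and 11 lower, and DESeq2 called 36, 32 higher and 4 lower. A further alternative took 20 depth-matched comparison cells per positive cell that also lacked the 4 exclusion genes. Of the 29 higher genes, 29 were called with RLE factors, 24 of the 28 with a DESeq2 adjusted p were called by DESeq2, 20 of the 20 that could be tested were called against the matched cells, and 19 were called in all 3. Of the 17 lower genes, the counts were 11, 4 of 14 and 4 of 12, and Id2 was the 1 gene called in all 3.

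Tagap had the largest rise of the genes named by the rule for naming. It stood at 550.1 and 925 CPM in liver, 695 and 825 CPM in spleen and 246 and 121 CPM in lymph node Nr4a/Egr-positive cells, against 33.5 to 45.9 CPM in comparison cells. All 6 sums were above all comparison sums, and the lymph node sums were the lowest of the 6. The log2 fold change was 3.18 ± 0.26 (SE, edgeR adjusted p = 2.38e-29), from 107 UMIs in 41 of the 131 cells. Tagap (chr17:7926000-7934897, GRCm38) is the single gene called among 21 genes of proximal T cell receptor signalling, whose median log2 fold change was −0.02 beside −0.29 over all genes.

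Among 17 genes of NF-kB subunits and feedback 3 were called, each higher in all 6 libraries, which the rule for naming required. Nfkbid encodes IκBNS, a nuclear IκB protein. It stood at 275 and 722 CPM in liver, 116 and 722 CPM in spleen and 399 and 304 CPM in lymph node against 36.1 to 83.9 CPM in comparison cells, with no overlap (log2 fold change 2.47 ± 0.26, edgeR adjusted p = 2.21e-17). Nfkbiz, which encodes the related IκBζ, rose by 1.87 ± 0.32 on the log2 scale (edgeR adjusted p = 3.21e-06). Its sums held 2 UMIs in liver 1 and 1 UMI in each spleen library. In the lymph node libraries alone Nfkbiz was not called (1.41, edgeR adjusted p = 0.30). Nfkbia, which encodes the inhibitor IκBα, was more abundant, at 715 and 1406 CPM in liver, 753 and 1752 CPM in spleen and 1537 and 1943 CPM in lymph node. Its comparison levels were 355 and 370.5 CPM, 479 and 398 CPM, and 932 and 820.0 CPM, so that it rose within each library (log2 fold change 0.97 ± 0.18, edgeR adjusted p = 3.05e-05) while liver and spleen sums overlapped the lymph node comparison cells. Of 17 genes of NF-kB subunits and feedback, all 17 were tested, these 3 rose and none fell, with a median of 0.18. Of the 12 risen genes with an upstream window used here, Nfkbia was the 1 with a kB word, shown in capitals above.

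Immediate early genes outside the AP-1 family rose in part. Gadd45b, a stress-induced regulator of MAPK signalling, stood at 495 and 407 CPM in liver, 57.9 and 515 CPM in spleen and 399 and 344 CPM in lymph node, against 30.6 and 30.4, 13.1 and 10.5, and 142 and 102 CPM (log2 fold change 2.41 ± 0.28, edgeR adjusted p = 3.59e-14). Spleen 1 was low, with a Gadd45b UMI in 1 of its 8 Nr4a/Egr-positive cells. Myc, a driver of cell growth, rose by 1.85 ± 0.31 but was lower in lymph node 1 (35.2 against 49.7 CPM) and not called in the lymph node libraries alone (0.75, edgeR adjusted p = 1.00). Zfp36l1, which promotes decay of AU-rich mRNAs, rose by 1.14 ± 0.20 and Ier2 by 0.99 ± 0.19 on the log2 scale. In the lymph node libraries alone Ier2 was not called (0.59, edgeR adjusted p = 0.19). After thinning to 1000 UMIs neither was called (0.95 and 0.15, edgeR adjusted p = 0.12 and 0.84), beside a median of −1.10 over all genes. Of the 15 named rises, Tagap, Nfkbid and Cd69 were the ones still called, in a thinned set of 49 cells. Gadd45b (0.92), Il4 (1.04), Dusp2 (0.51) and Nfkbia (0.30) were among those not called (edgeR adjusted p = 0.17, 0.097, 0.40 and 0.65). Of 23 genes of this list tested, these 4 rose and Id2 fell, with a median of 0.25. Id2 is induced early in many cells but stood lower here.

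None of the 11 AP-1 genes tested was called by edgeR, where the median was 0.17. Junb stood at 4869 and 5405 CPM in lymph node Nr4a/Egr-positive cells against 3979.9 and 4201 CPM in comparison cells, and at 440.0 and 740.0 CPM in liver against 390.4 and 393 CPM. In spleen it stood at 811 and 618 CPM against 807 and 619.9 CPM, so that the kinds of cells hardly differed there. The log2 fold change was 0.08 ± 0.19 (edgeR adjusted p = 0.923). The gap between organs was thus far larger than the gap between the kinds of cells. Against 20 depth-matched comparison cells per positive cell without the exclusion genes, Junb was called at 0.42 (edgeR adjusted p = 0.045). Jund gave −0.15 ± 0.19 (edgeR adjusted p = 0.818).

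Feedback inhibitors of Ras and MAPK were among the rises. Spry2, which restrains Ras signalling, stood at 55.0 and 92.5 CPM in liver, 579 and 103 CPM in spleen and 153 and 283 CPM in lymph node against 14.6 to 44.9 CPM (log2 fold change 2.33 ± 0.31, edgeR adjusted p = 1.03e-10). A single cell of spleen 1 held 9 UMIs of Spry2, and a single cell of lymph node 2 held 9. Dusp2, a nuclear MAPK phosphatase, stood at 660.1 to 1134 CPM against 178 to 392 CPM with no overlap (log2 fold change 1.07 ± 0.19, edgeR adjusted p = 8.35e-06). These 2 of 9 tested genes of the list rose and none fell, with a median of 0.54. Nab2, which encodes a co-repressor that binds EGR proteins, rose by 1.51 ± 0.32 on the log2 scale (edgeR adjusted p = 0.000973). It was not called in the lymph node libraries alone (1.21, edgeR adjusted p = 0.45).

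Cd69, whose product holds T cells in tissue by opposing the egress receptor S1PR1, stood at 275 and 1166 CPM in liver, 232 and 103 CPM in spleen and 293 and 567 CPM in lymph node. Comparison cells had 91.7 and 99.9, 76.2 and 75.2, and 115 and 142 CPM. Spleen 2, with a single UMI, was the one sum that fell below comparison cells of another organ (log2 fold change 1.95 ± 0.23, edgeR adjusted p = 1.94e-14). Cd69 was the 1 gene of 13 tested for surface activation and costimulation that rose, with a median of 0.26. Cd274 (PD-L1) rose by 2.13 ± 0.37 and Pdcd1lg2 (PD-L2) by 1.53 ± 0.35 on the log2 scale (edgeR adjusted p = 6.95e-06 and 0.00280), while none of 13 inhibitory and anergy-linked genes tested was called. In the lymph node libraries alone Cd274 (2.06, edgeR adjusted p = 0.12) and Pdcd1lg2 (0.92) were not called. Rilpl2, which binds Rab GTPases, rose by 1.75 ± 0.29, but was not called in the lymph node libraries alone (1.10, edgeR adjusted p = 0.45).

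**Figure D3:**
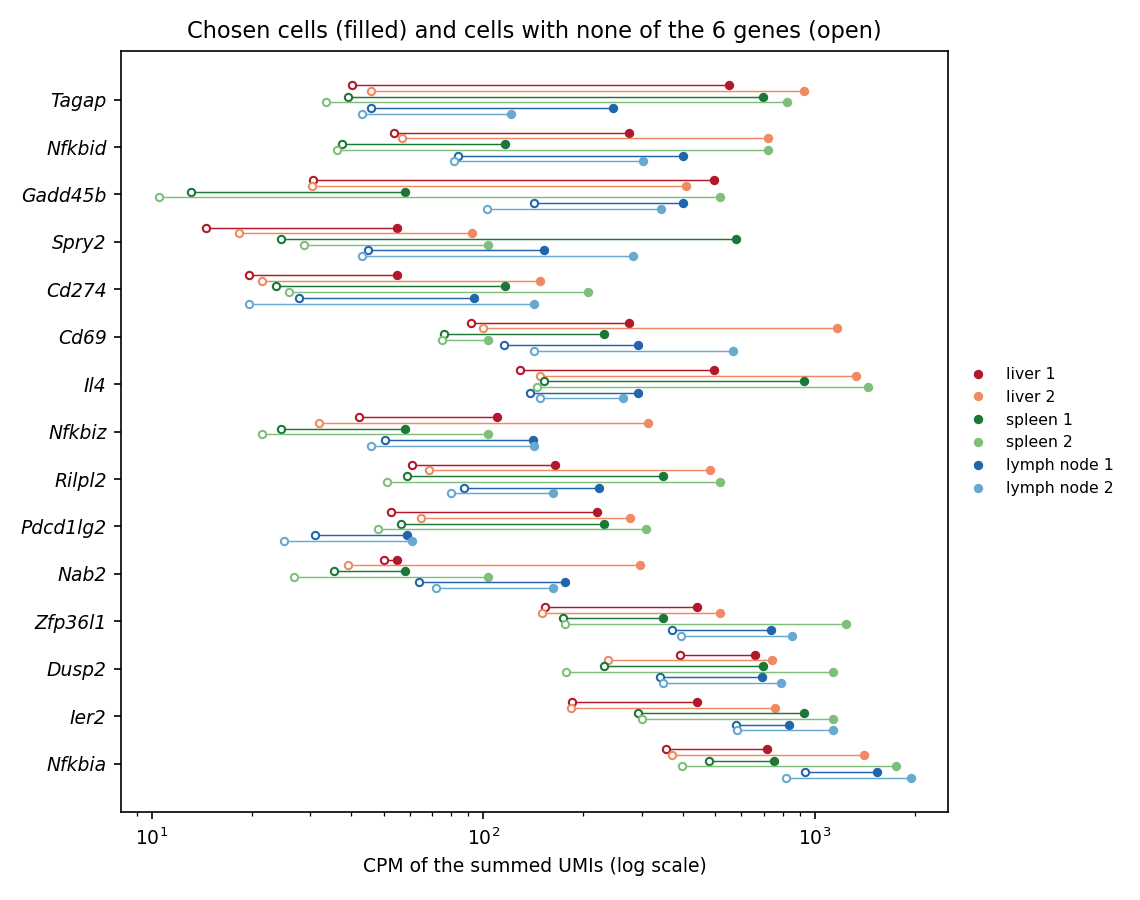
CPM (log scale) of the 15 named genes that rose, with 1 filled point per library for Nr4a/Egr-positive cells joined to the open point of comparison cells of that library. For all 15 genes each filled point lies to the right of its open point, which the rule for naming required, and Tagap in lymph node (246 and 121 CPM) lies below Tagap in liver and spleen.

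Cytokine genes gave 3 rises and 1 fall among 10 tested, with a median of 0.86. Il4, a signature cytokine of iNKT cells, stood at 495 and 1332 CPM in liver, 927 and 1443 CPM in spleen and 293 and 263 CPM in lymph node against 129 to 152 CPM in comparison cells. All 6 sums lay above all comparison sums. The log2 fold change was 1.88 ± 0.20 (edgeR adjusted p = 6.94e-17), from 149 UMIs in 46 cells, of which 1 cell of liver 2 held 43. In the lymph node libraries alone the log2 fold change of Il4 was 0.86 (edgeR adjusted p = 0.43). Xcl1, a chemokine for cross-presenting dendritic cells, rose by 0.92 ± 0.20 (edgeR adjusted p = 0.00111), although spleen 1 (232 against 334 CPM) and lymph node 2 (101 against 134 CPM) were lower. Xcl1 was not called in the lymph node libraries alone (0.69, edgeR adjusted p = 0.73). Tnf rose by 1.97 ± 0.35 (edgeR adjusted p = 1.48e-05, DESeq2 adjusted p = 0.0526), with 20 of its 31 UMIs in liver 2. It was lower in lymph node 2 (20.2 against 30.5 CPM) and was not called in the lymph node libraries alone (0.57). Ccl5 fell by 0.88 on the log2 scale (edgeR adjusted p = 0.000443), but was not called by DESeq2 (adjusted p = 0.13). In lymph node 2 it was not lower (789.5 against 787.8 CPM). Nor was Ccl5 called in the lymph node libraries alone (−0.56, edgeR adjusted p = 0.45). Against the 20 depth-matched cells without the exclusion genes it gave −0.34 (edgeR adjusted p = 0.13).

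Among effector transcription factor genes, Irf4, which T cells induce in step with receptor signal, gave 2.56 ± 0.60 and Irf8 gave 2.05 ± 0.33 on the log2 scale, the 2 rises of 9 tested (edgeR adjusted p = 0.0111 and 3.23e-07). Irf4 stood at 165 and 74.0 CPM in liver and 57.9 CPM in spleen 1, had 1 UMI in lymph node 1 (11.7 CPM) and was at 0 in spleen 2 and lymph node 2. Irf8 stood at 770.1 and 426 CPM in liver against 61.1 and 78.9 CPM, at 57.9 CPM in spleen 1 and at 40.5 CPM in lymph node 2, and was at 0 in the other two libraries. DESeq2 did not call Irf8 (adjusted p = 0.998). Both genes were thus carried by liver. Other genes that rose and were called in all 3 alternatives were Orai1 (1.51 ± 0.31), the pore of store-operated calcium entry, the histone demethylase gene Kdm6b (1.20 ± 0.25), the kinase gene Pim1 (0.81 ± 0.20), the granule proteoglycan gene Srgn (0.82 ± 0.17), Samsn1 and the anti-apoptotic paralogs Bcl2a1b and Bcl2a1d, whose counts may be split between near-identical copies. They are named although they lie outside the rule for naming, after their values were seen. Kdm6b, Pim1 and Srgn were also called in the lymph node libraries alone, and Orai1, Samsn1, Bcl2a1b and Bcl2a1d were not. Orai1 was at 0 in spleen 1 (59.6 CPM in comparison cells) and Kdm6b at 0 in liver 1 (34.3 CPM), and Samsn1 was not called against all comparison cells without the exclusion genes (edgeR adjusted p = 0.0589).

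Lists for the main iNKT subsets gave few calls. Of 17 iNKT1 genes tested, Klra1 and Xcl1 rose and Ccl5 fell, with a median of −0.45, and 19 of the Klra1 UMIs came from 1 cell of lymph node 2. Klra1 was lower in liver 1 (0 against 80.9 CPM) and spleen 1 (57.9 against 92.4 CPM), gave 0.08 in the liver and spleen libraries alone (edgeR adjusted p = 0.985) and was not called by DESeq2 (adjusted p = 0.998). Of 11 iNKT2 genes Il4 alone rose, with a median of −0.02. Of 6 iNKT17 genes Tmem176b and Tmem176a, which overlap on the genome, fell by 1.81 and 1.42 on the log2 scale, with a median of −1.37 for the list. DESeq2 called neither (adjusted p = 0.998 and 0.50), and in spleen 1 both were higher in the set (Tmem176b 232 against 27.9 CPM, Tmem176a 57.9 against 34.4 CPM). Ccr6, an iNKT17 gene, had to be absent from the set but not from comparison cells. Against comparison cells without the 4 exclusion genes, Tmem176b still gave −1.67 (edgeR adjusted p = 0.018) and Tmem176a gave −1.25 (edgeR adjusted p = 0.13).

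The rule kept cells with Top2a, a gene of dividing cells, out of the set but not out of the comparison cells. Of 13 cycling genes tested, Ccnb2, Stmn1 and Hmgb2 fell and none rose, with a median of −1.48. Stmn1, a microtubule regulator gene, stood at 0 to 141 CPM against 197 to 324 CPM (log2 fold change −1.60 ± 0.31, edgeR adjusted p = 0.000155). Hist1h2ap, a replication-dependent histone gene with near-identical copies, gave −4.08 ± 0.55. Against comparison cells that also lacked Top2a and the other exclusion genes, Stmn1 gave −0.34 and Hist1h2ap −0.71 (edgeR adjusted p = 0.80 for each), and Hmgb2 gave −0.58 (edgeR adjusted p = 0.20). Ccnb2, a mitotic cyclin gene, and Agfg2 had no UMI in the set. At the level of comparison cells 7.67 and 8.31 UMIs would have been counted, and against a floor of 3 counts over the whole set they were at least 2.56-fold and 2.77-fold lower. At the level of comparison cells without the exclusion genes 3.30 and 8.17 UMIs would have been counted, which lowers the bounds to 1.10-fold for Ccnb2 and 2.72-fold for Agfg2.

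Id2 was also called against comparison cells without the exclusion genes (−0.82, edgeR adjusted p = 0.0034). It stood at 3685 and 2942 CPM in liver, 2201 and 3402 CPM in spleen and 2382 and 2429 CPM in lymph node Nr4a/Egr-positive cells. Comparison cells had 4168 and 4047, 4314 and 3870.0, and 2965 and 3018 CPM. Each library was lower in the set, although liver and spleen sums overlapped the lymph node comparison cells. The log2 fold change was −0.75 ± 0.17 (edgeR adjusted p = 0.00527), and −0.44 with RLE factors. In the lymph node libraries alone Id2 was not called (−0.45, edgeR adjusted p = 0.19), and it lost its call in 6 of 23 alternatives. The remaining named falls, Actn2 (−2.65 ± 0.64), the Rab-binding gene Rabac1 (−0.95 ± 0.24), the translocon gene Sec61b (−0.81 ± 0.21) and the serine palmitoyltransferase subunit gene Sptssa (−0.70 ± 0.19), had no DESeq2 call. DESeq2 gave no adjusted p for Actn2, and did not call Rabac1, Sec61b or Sptssa (DESeq2 adjusted p = 0.326, 0.326 and 0.362).

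Further lists gave no call by edgeR. These were 15 egress and quiescence genes (median −0.14), 13 interferon response genes (−0.18), 12 heat shock genes (0.09), 7 cholesterol synthesis genes (−0.57) and 16 genes of biosynthesis and metabolism (−0.11), beside −0.29 over all genes. Heat shock genes, which mark handling stress among other things, summed to 5154 to 12026 CPM in the set and 4917 to 8354 CPM in comparison cells. The summed level was higher in the set in all 6 libraries, and its part in the rises above was not tested. Hspa8, for example, stood at 3685 and 4477 CPM in liver against 2674 and 2839.6 CPM (log2 fold change 0.07 ± 0.17, edgeR adjusted p = 0.926).

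Levels were also set out by the number of rule genes in a cell, over 13480 cells with none, 1259 with 1, 115 with 2 and 16 with 3 or more, all without the exclusion genes. Pooled over libraries, Tagap stood at 41.5, 80.4, 328 and 1352 CPM in this order, Nfkbid at 57.7, 102, 308 and 1318 CPM and Cd69 at 100.4, 167, 402 and 1487 CPM. Without liver 2 the last class held 9 cells, and the last value was 1020 CPM for Tagap (13 UMIs), 1412 CPM for Nfkbid (18 UMIs) and 471 CPM for Cd69 (6 UMIs), against 341 CPM for Cd69 in cells with 2 genes. Id2 went the other way, at 3999, 3479, 2669 and 2534 CPM, while Cd3d stayed at 1998 to 2095 CPM. Cells with 1 gene were not part of the test above. In them, 10 of the 15 named rises were above cells with none in all 6 libraries and 14 in at least 5, and of the 10 named falls Id2 was below in all 6 and 4 were below in at least 5. Of all 8044 genes tested, 2.01% were above in all 6 and 11.6% in at least 5, and 2.44% and 13.9% were below. The named genes had been chosen against largely the same cells with none, so that these counts are a description. The organs took different parts of each class, since the lymph node libraries held 350 and 344 of the 1259 cells with 1 gene, while 7 of the 16 cells with 3 or more came from liver 2. In comparison cells Id2 stood at 2965 and 3018 CPM in lymph node and at 3870 to 4314 CPM in liver and spleen. The pooled Id2 values thus also carry the mix of organs.

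**Figure D4:**
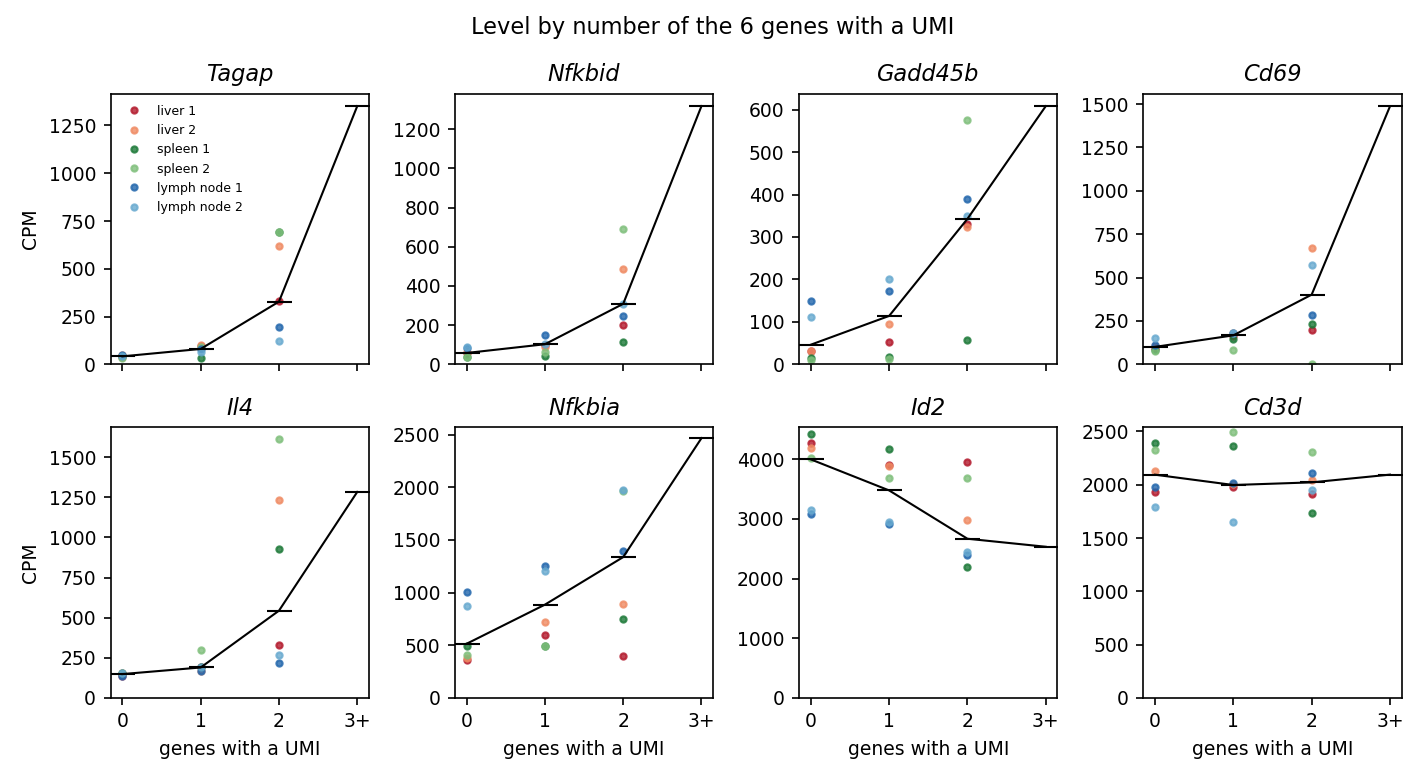
CPM (linear scale) in cells with 0, 1, 2 and 3 or more of the 6 genes, with 1 point per library up to 2 genes and a black line for the value pooled over libraries, the only value drawn for the 16 cells with 3 or more. Tagap climbs from 41.5 to 1352 CPM in the pooled values, while Id2 falls from 3999 to 2534 CPM. The mix of organs differs between the classes.

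Whether the difference between the set and comparison cells varied with organ was tested as an interaction over 9251 genes. Within liver 32 genes (0.346%) were called, 23 (0.249%) higher and 9 (0.0973%) lower. Within lymph node 9 (0.0973%) were called, 6 (0.0649%) higher and 3 (0.0324%) lower, and within spleen 59 (0.638%), 4 (0.0432%) higher and 55 (0.595%) lower. In spleen the median of all genes was −1.42. With RLE factors the calls were 29 higher and 4 lower in liver, 14 higher and 2 lower in lymph node and 12 higher and 7 lower in spleen, and DESeq2 called 20, 1 and 16 genes, all higher. Without liver replicate 2 the liver calls were 4 higher and 11 lower, without either lymph node library no gene was called in lymph node (105 and 101 at an unadjusted p below 0.05, edgeR), and without spleen replicate 2 the spleen calls were 2 higher and 7 lower. The 6 lymph node rises were Tagap, Nfkbid, Gadd45b, Spry2, Cd69 and Klra1. The difference between liver and lymph node was called for 3 genes (0.0324%), the cytokine genes Csf2, Ifng and Il4, all with a larger rise in liver. Without liver replicate 2 none of the 3 was called, Ifng turned to −2.47, and the 2 calls were the actin genes Actb and Actg1, both with a lower effect in liver (−1.40 and −1.67). Liver against spleen gave 0 genes by edgeR (193 at an unadjusted p below 0.05) and 0 by DESeq2.

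Il4 differed between liver and lymph node by 1.72 on the log2 scale (edgeR adjusted p = 0.0373) and Ifng, the other hallmark cytokine gene of iNKT cells, by 1.99 (edgeR adjusted p = 0.00915). Ifng stood at 55.0 and 2072 CPM in liver, 289.6 and 309 CPM in spleen and 223 and 304 CPM in lymph node, against 53.9 to 135 CPM in comparison cells. Liver 1, with 1 UMI, was below its own comparison cells, and liver 2 was far above all others. Csf2, which encodes GM-CSF, had 11 UMIs in 2 cells of liver 1, 34 in 3 cells of liver 2 and 6 in 1 cell of spleen 2, and none in spleen 1 or either lymph node library. A floor of 3 counts over the lymph node set corresponds to 22.3 CPM, which is above the 11.6 and 11.9 CPM of lymph node comparison cells, so that a fall of Csf2 in lymph node was not detectable at this depth. DESeq2 called none of the 3 differences.

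These differences rested on few cells. A single cell of liver 2 with 3294 UMIs in all held 17 UMIs of the rule genes (8 of Nr4a1, 7 of Egr1 and 2 of Nr4a3), 47 of the 112 Ifng UMIs of its set, 26 of the 34 Csf2 UMIs and 18 of the 72 Il4 UMIs. It also held 12 UMIs of Cd69, 11 of Myc, 9 of Tagap and 9 of Tnf, and it was not among the top 2% of doublet scores. Without this cell no liver to lymph node difference was called (Csf2 adjusted p = 0.418, Ifng 1.39 with adjusted p = 1.00, Il4 1.45 with adjusted p = 0.418, edgeR), whereas 49 genes were called between the set and comparison cells over all libraries. Without the whole of liver 2 that count was 24 instead of 46. Tagap, at 1.89 between liver and lymph node, had an edgeR adjusted p of 0.0593.

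At the level of cells, Il4 had a UMI in 4 of 7 and 7 of 21 liver cells of the set, 5 of 8 and 3 of 7 spleen cells, and 17 of 54 and 10 of 34 lymph node cells. Ifng had a UMI in 1 and 12, 2 and 3, and 10 and 7 cells in the same order. Cells with UMIs of both cytokines numbered 16 of 131. Csf2 was found in 6 cells, Il17a in 1 cell of each lymph node library, and Ccl3 and Il10 in none. Of comparison cells 13.9 to 26.1% had a UMI of Il4 and 6.43 to 19.7% one of Ifng, at other depths, and in liver 1 the Ifng share was 14.3% in the set and 16.7% in comparison cells.

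**Figure D5:**
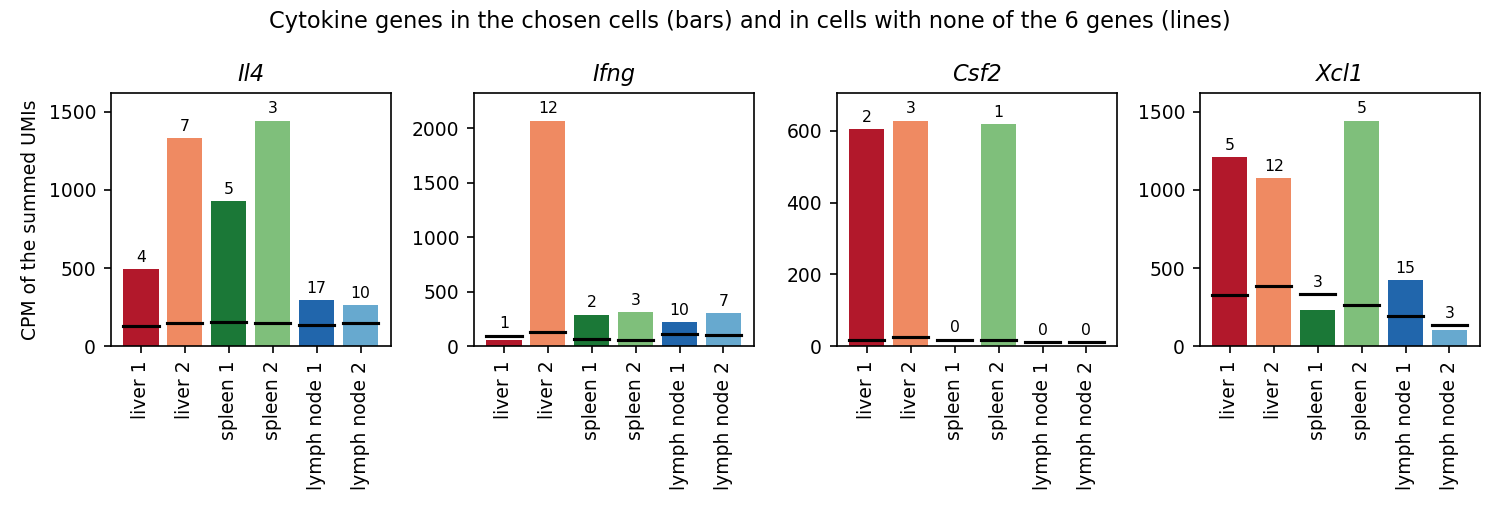
CPM of Il4, Ifng, Csf2 and Xcl1 by library, with bars for Nr4a/Egr-positive cells, a black line for comparison cells and above each bar the number of cells with a UMI. Ifng in liver 2 (2072 CPM, 12 cells) stands above the other 5 libraries, and Csf2 is at 0 in both lymph node libraries.

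Between spleen and lymph node the difference was called for 1 gene (0.0108%), mt-Co1, a mitochondrial respiratory chain gene, at −1.19 (edgeR adjusted p = 0.0492). It stood at 6776 and 9793 CPM in the spleen set against 9906 and 11366 CPM, and at 11768 and 13098 CPM in the lymph node set against 10490.4 and 11021 CPM. It was lower in both spleen libraries and higher in both lymph node libraries. The median mitochondrial percentage of cells moved the same way, at 3.33 and 4.43% in the spleen set against 4.07 and 4.68%, and at 5.01 and 5.54% in the lymph node set against 4.52 and 5.13%, and its part in the difference was not tested. The median of all genes for this contrast was −0.82, and DESeq2 called no gene. The number of calls also changed with the libraries kept, as given under the processing.

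Nr4a/Egr-positive cells of the organs were also compared with each other, over 745 genes with enough UMIs. Between liver and lymph node 82 genes (11.0%) were called, 46 (6.17%) higher in liver and 36 (4.83%) higher in lymph node, and DESeq2 called 26. Between spleen and lymph node 11 genes (1.48%) were called, 6 (0.805%) higher in spleen and 5 (0.671%) higher in lymph node, and between liver and spleen 0 by edgeR (66 at an unadjusted p below 0.05) and 1 by DESeq2. That 0 became 7 to 14 on leaving out any 1 library and 16 with the replicate number as a block. The counts of 82 and 11 also went both down and up on leaving out a library, over other numbers of genes tested, as given under the processing. Genes could pass the filter on low counts through 1 organ alone, so the direction of some calls was set by the filter and no counts by list are given. For Junb, liver over lymph node gave −3.05 ± 0.28 on the log2 scale (edgeR adjusted p = 1.08e-05). Comparison cells showed the same gap in Junb, with 390.4 and 393 CPM in liver and 3979.9 and 4201 CPM in lymph node. The gap in Junb was thus present in both kinds of cells.

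The iNKT1 gene Ccl5 was higher in the liver set, at 2.26 ± 0.34 (edgeR adjusted p = 0.000509), which had 2035 and 3737 CPM in liver and 469 and 789.5 CPM in lymph node. Ccl5 in comparison cells differed likewise, at 4917 and 3926 CPM against 807 and 788 CPM. Il4 and Tagap, given above by library, reached the 296 CPM that the filter asks for in liver and spleen but not in lymph node, so that no test between organs is given for them within the set. Their comparison cells overlapped between liver and lymph node, at 129 and 148 CPM against 138 and 148 CPM for Il4 and at 40.2 and 45.8 CPM against 45.9 and 43.1 CPM for Tagap, whereas those of Junb and Ccl5 did not.

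Cells with both families were compared with cells that had Nr4a genes alone within the set. Of 94 genes with enough UMIs, 0 were called by edgeR (5 at an unadjusted p below 0.05) and 0 by DESeq2. The groups held 86 and 28 cells, and the lowest edgeR adjusted p was 0.80. The study describes the libraries of an organ as biological repeats, but the labels do not say how many mice each held, so that p-values measure the spread between these libraries.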

How the data were processed

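Sorted iNKT cells of 6 libraries (2 each of liver, spleen and lymph node) had been profiled with 10x Genomics 3′ v2 chemistry. The authors aligned reads to mm10 and counted UMIs with Cell Ranger 3.1.0, per the labels and the study's methods, and the deposited matrices hold raw, unscaled UMI counts for each barcode and gene. The molecule is given as nuclear RNA in the labels, and whether this is so was not tested. Deposited gene and barcode lists hold other values, namely identifiers. All libraries list the same 27998 genes. Totals ran from 4768016 to 11086603 UMIs per library. Precision for the set is limited by 233824 UMIs in its 131 cells, without the rule, ribosomal and haemoglobin genes.

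Of 16587 barcodes, 55 were left out for under 300 or over 4000 genes or over 15% mitochondrial UMIs. The rule for members, the gene lists and the tests were chosen with earlier results of these data known. No doublets were removed in the reported values. UMIs were summed per library over members and over comparison cells, and tests used edgeR 4.0.16 under R 4.3.3 (TMM, library block, robust quasi-likelihood fit, and filterByExpr at a minimum count of 10), with Benjamini-Hochberg adjustment over all genes tested and calls below 0.05. Organs were compared with the library block and an interaction, or among members alone without a block. The scripts were tested on simulated data. Genes named were the 15 largest rises and 10 largest falls among called genes with at least 20 CPM in the higher mean and 1 direction in all 6 libraries, up to 4 called genes (otherwise 2) per list by abundance, and up to 4 called genes per organ contrast. CPM are counts scaled to a sum of 1000000. Alternatives were DESeq2 1.42.0, RLE factors, other filters, depth-matched or thinned cells, other thresholds of the rule and leaving out libraries. Those added after seeing the data were the 20 matched cells per member, subsets of libraries, RLE factors for the organ interaction and leaving out the 1 member with the most UMIs of the rule genes. Locations came from GENCODE vM21 (27645 of 27998 genes matched by identifier) and windows from RefSeq, of which the first 250 bases were used.

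The labels do not say whether replicate numbers shared by the organs pair the libraries. With 2 libraries per organ, the correlations below cannot settle this. Correlations of the deviations of same-numbered libraries from their organ means, across 745 genes, were −0.066, 0.068 and 0.015 in the set, and across 10135 genes 0.087, 0.079 and 0.070 in comparison cells, all under 0.1.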

Additional observations from a re-analysis of the deposited data

Results flagged for a closer look

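For the 3 cytokine genes Csf2, Ifng and Il4 the difference between liver and lymph node in the effect of the set was called by edgeR. DESeq2 called 0 of them, no difference was called without 1 cell of liver 2 or without either lymph node library, and Ifng in liver 1 was below its comparison cells (55.0 against 97.6 CPM). The fitted log2 difference was 12.09 for Csf2, 1.99 for Ifng and 1.72 for Il4 (edgeR adjusted p = 0.000849, 0.00915 and 0.0373). The Csf2 value depends on the small count that the fit adds to lymph node libraries without a UMI, and is not a measure of size. In the spleen against lymph node comparison, mt-Co1 differed by −1.19 (edgeR adjusted p = 0.0492), beside a median of −0.82 over all genes with TMM factors and −0.46 with RLE factors. No library group was large enough for a search for single outlying libraries.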

How the results depend on the processing

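Among named genes, the difference between Nr4a/Egr-positive and comparison cells kept its direction and its side of the threshold in 487 cases of a gene and an alternative, lost its call in 186 and reversed in 2. Reversed were Hmgb2 (0.080, comparison cells without the exclusion genes and matched 1 to 1 on UMIs) and Irf8 (−0.39, lymph node libraries alone). Tagap (2.02 to 3.77) and Nfkbid (1.99 to 3.09) were called in all 21 alternatives run for them. The organ difference of Ifng reversed to −2.47 without liver replicate 2 and ranged up to 2.74 (without liver replicate 1).

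After thinning to 1000 UMIs the shares were 0.141% for liver, 0.0975% for spleen and 0.760% for lymph node, and 0.140, 0.0188 and 0.131% with at least 3 of the 6 genes. The 46 calls became 13 with at least 3 genes, 11 with comparison cells matched 1 to 1, 12 where these also lacked the exclusion genes, 9 without the library block and 19 in the lymph node libraries alone. They ranged from 24 (without liver replicate 2) to 44 on leaving out a library. Fewer genes were tested with matched cells (555 and 554). After thinning, 47 genes were called, 7 higher and 40 lower, beside a median log2 fold change of −1.10 over all genes.

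For liver against lymph node within the set (82 calls), DESeq2 gave 26, thinning 10, no filter on low counts 45 and leaving out a library 38 (lymph node replicate 1) to 139 (spleen replicate 1). For liver against spleen (0 calls) the values were 1, 1, 2 and 7 to 14, and 1 with RLE factors. For spleen against lymph node (11 calls) they were 4, 1, 7 and 6 to 27. The genes tested numbered 745 in the main fit, 39 after thinning, 9698 with no filter and 440 to 1773 on leaving out a library. These counts are thus not like for like. An organ left with 1 library is assumed to vary like the others. With the replicate number as a replicate block, the counts were 76, 16 and 13, but the labels do not say whether these numbers pair the libraries.

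For the organ difference between liver and lymph node (3 calls), comparison cells without the exclusion genes gave 5, those matched 1 to 1 as well 1, DESeq2 0, RLE factors 5, leaving out the 1 cell with the most UMIs of the rule genes 0 and leaving out a library 0 (either lymph node library) to 5. Between liver and spleen (0 calls), the 1 to 1 match gave 1, RLE factors 1 and leaving out a library 0 to 2. Between spleen and lymph node (1 call), comparison cells without the exclusion genes gave 2, the 1 to 1 match 0, DESeq2 0 and leaving out a library 0 to 24 (liver replicate 2). Both families against Nr4a alone gave 1 call with no filter. Liver replicate 1 and both spleen libraries had 7 or 8 cells in the set, so that a single UMI there is worth over 50 CPM, and the depth limits what could be seen in them.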
